A study of Mus musculus with 2 samples.

Results

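The 41 genes described here act on collagen on its way out of the cell or respond to a loaded endoplasmic reticulum (ER). They were taken by symbol, as 4 prolyl 4-hydroxylase subunits, 3 lysyl hydroxylases, 5 factors of collagen folding in the ER, 5 factors of ER export and retrieval, 8 secreted factors that process or cross-link collagen, 11 general ER chaperones and 5 stress transcription factors. All 41 symbols were among the 27998 genes of the deposited count tables. The cells were metaphyseal mesenchymal progenitors and their descendants from Gli1-CreERT2; Ai9 mice of mixed background at 1 month of age, in which the hedgehog-responsive Gli1 promoter drives an inducible Cre and the Ai9 allele turns on tdTomato in the cells where Cre was active. All mice first received tamoxifen on 3 consecutive days. They then received either vehicle or teriparatide, a fragment of parathyroid hormone, at 400 ng/g body weight intraperitoneally once daily for 3 days, and tdTomato-positive cells negative for CD31, CD45 and Ter119 were sorted for single-cell RNA sequencing. There was 1 library per condition, which pooled mice of both sexes, so the differences below have no replicate check and no p-value is given.

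Fibrillar collagen is made as a procollagen chain in the ER, where prolyl and lysyl residues are hydroxylated, 3 chains fold into a helix held by the collagen chaperone HSP47, and large COPII carriers export the product. Outside the cell, propeptides are cut off and lysyl oxidases start the cross-links of the fibril. When unfolded protein builds up in the ER, sensors in its membrane activate transcription factors that raise the chaperones, the response known as the unfolded protein response (UPR). Osteoblasts are known for the heavy load of type I collagen that they put through this route.

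The vehicle library held 1286 cell barcodes and 10567335 unique molecular identifiers (UMIs, each a counted RNA molecule), and the teriparatide library 2142 barcodes and 26270041 UMIs. The libraries differed in quality, since 55.8% of vehicle and 40.2% of teriparatide barcodes were over the mitochondrial limit. The median depth of all barcodes was 3622 and 6217.5 UMIs. After the limits on genes and mitochondrial UMIs 549 and 1217 cells were kept, with median depths of 10875 and 14556 UMIs. Across the libraries 2 barcodes were shared. Marker gates gave 65 vehicle and 246 teriparatide cells like the chondrocyte-like osteoprogenitor (COP-like, Sox9, Sox5, Sox6, Col2a1 and Acan), 22 and 31 like preosteoblasts (preOB-like, Runx2, Postn, Tnn and Aspn), 93 and 119 osteoblast-like cells (OB-like, Col1a1, Bglap, Bglap2, Ibsp, Dmp1, Phex and Mepe) and 178 and 99 like marrow adipogenic lineage progenitors (MALP-like, Lepr, Cxcl12, Vcam1, Pdgfrb and Adipoq). Blood cells remained in spite of the sort, with 42 and 159 erythroid-gated and 63 and 426 hematopoietic-gated cells. In the 4 mesenchymal classes the 7 erythroid markers summed to between 0 and 6.15 CPM (UMIs of the genes for every 1000000 UMIs of the class), and the 16 hematopoietic markers were at 10.5 to 101 CPM in vehicle and 92.9 to 213 CPM in teriparatide. The 5 markers of the COP gate summed to 44351 and 46000 CPM in COP-like cells and to at most 791 CPM in the other 3 classes, and the 5 of the MALP gate to 30509 and 24780 CPM in MALP-like cells and at most 633 CPM elsewhere. The classes were less apart for osteoblast genes, since the 7 markers of the OB gate summed to 29514 and 46181 CPM in preOB-like cells, beside 234579 and 202810 CPM in OB-like cells. The 4 osteocyte markers, with Sost at 0, summed to 980 and 3093 CPM in OB-like cells. By X- and Y-linked transcripts 52.5% of the vehicle and 91.2% of the teriparatide mesenchymal cells with a sex call were male. The shares were closest in COP-like cells, at 85.5% and 91.9%, and were 47.9% and 89.0% in MALP-like cells. The paper reports the same mix of male and female mice in both groups. Treatment and sex could be separated only by splitting the cells. Ratios within 1 sex are given for the summed chaperones and for some members, among them those whose ratio past 1.5-fold changed sign.

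UMIs were summed over the cells of each class and library and are given as CPM. A member was counted as higher or lower when its CPM differed by at least 1.5-fold between libraries and it held at least 50 UMIs over both. Values in square brackets are 95% intervals of counting error alone and do not cover variation between cells or between mice. In COP-like cells 22 of the 40 members that passed the floor were lower under teriparatide and 0 were higher, where 17.3% and 8.07% of all genes were lower and higher. In MALP-like cells 15 of 39 were lower and 0 higher, against 10.2% and 7.79% of all genes. In OB-like cells 8 of 38 were lower and 1 higher, against 9.5% and 8.97%. In preOB-like cells 10 of 34 were lower and 2 higher, against 19.6% and 9.51%. The median log2 ratio of teriparatide to vehicle over the members that passed was -0.63 in COP-like, -0.21 in preOB-like, -0.20 in OB-like and -0.28 in MALP-like cells, beside -0.21, -0.18, -0.06 and -0.07 over all genes that passed. Thus the member median stood below that of all genes in COP-like, OB-like and MALP-like cells, and close to it in preOB-like cells. In MALP-like cells 11 of the 15 lower members were general ER chaperones. There the medians were -0.04 for lysyl hydroxylases, -0.07 for ER export and 0.40 for extracellular factors. For collagen folding, stress transcription factors and prolyl 4-hydroxylases they were -0.19, -0.34 and -0.70. In COP-like cells the count depended on the scaling, since setting the median gene to no change left 12 members lower and 2 higher, where 7.32% and 13.4% of all genes were. Of the 41 members 13 were past 1.5-fold in no class.

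**Figure D1:**
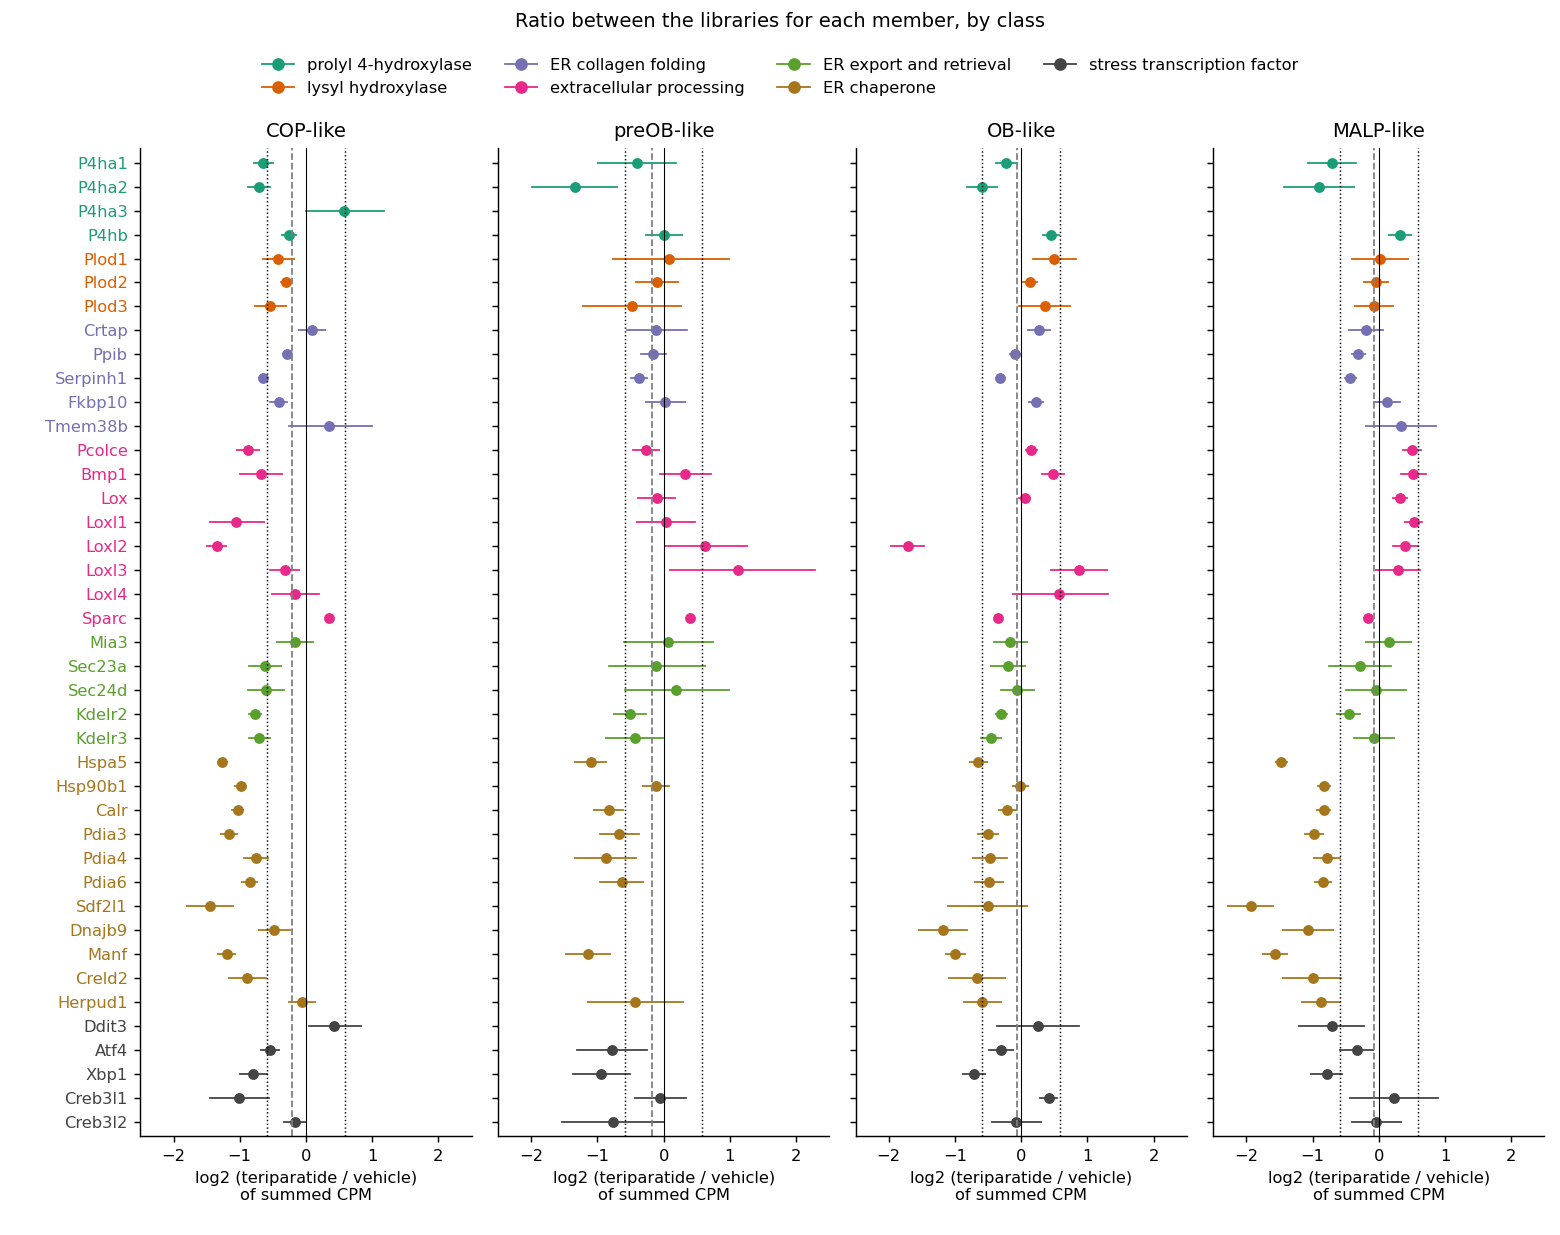
Log2 ratio of teriparatide to vehicle CPM (x axis) for each of the 41 members (y axis, coloured by list) in the 4 mesenchymal classes, with 95% counting intervals as bars. Solid lines mark no difference, dotted lines 1.5-fold and the dashed line the median of all genes, and members under 50 UMIs are not drawn. With cells of both sexes together, all drawn ER chaperones lie left of zero in each class, which holds for no other list. P4hb, itself a disulfide isomerase, is on another list and lies right of zero in OB-like and MALP-like cells.

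The general ER chaperones had the lowest median of the 7 lists in COP-like, OB-like and MALP-like cells. Their summed level was 5543 CPM in vehicle and 2734 CPM in teriparatide COP-like cells, a log2 ratio of -1.02 [-1.05 to -0.99]. In MALP-like cells the sum was 9690 and 4624 CPM, a log2 ratio of -1.07 [-1.11 to -1.03]. In preOB-like cells it was 5593 and 3429 CPM (log2 ratio -0.71 [-0.80 to -0.61]), and in OB-like cells 3048 and 2215 CPM (log2 ratio -0.46 [-0.51 to -0.41]). Past 1.5-fold, 9 of 11 chaperones were lower in COP-like, 6 of the 8 that passed the floor in preOB-like, 5 of 11 in OB-like and 11 of 11 in MALP-like cells, and none was higher in any of them. Of all genes 17.3%, 19.6%, 9.5% and 10.2% were lower in these classes. Over the chaperones that passed, the median log2 ratio was -0.99 in COP-like, -0.75 in preOB-like, -0.51 in OB-like and -0.98 in MALP-like cells. With both sexes together all 11 ratios were negative in COP-like, OB-like and MALP-like cells and all 8 in preOB-like cells. Scaling to the median gene left 10, 10, 11 and 7 negative. In OB-like cells 9 of 10 were negative in male and 2 of 11 in female cells. In preOB-like cells it was 5 of 7 in each sex. In COP-like cells 11 of 11 were negative in male and 9 of 10 in female cells, and in MALP-like cells 11 of 11 in each sex.

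Hspa5 encodes BiP, the ER member of the HSP70 family that also holds the UPR sensors inactive. Its level was 1366 CPM in vehicle and 569 CPM in teriparatide COP-like cells (log2 ratio -1.26 [-1.34 to -1.19]). In MALP-like cells it was 2630 and 949 CPM, or -1.47 on the log2 scale [-1.56 to -1.38]. In preOB-like cells Hspa5 stood at 1076 and 502 CPM, and in OB-like cells at 569 and 364 CPM, with log2 ratios of -1.10 and -0.65. BiP transcripts were thus lower in the teriparatide library in all 4 classes, although in female OB-like cells alone the log2 ratio was 0.28, with an interval that reached zero.

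Manf, a secreted ER stress protein that binds BiP, followed the same order, with 435 and 190 CPM in COP-like, 566 and 256 CPM in preOB-like, 480 and 241 CPM in OB-like and 706 and 239 CPM in MALP-like cells. Its log2 ratios were -1.20, -1.14, -0.99 and -1.56. Sdf2l1, a BiP cofactor, had the lowest ratio of all members in COP-like (64.4 and 23.6 CPM, log2 ratio -1.45) and MALP-like cells (243 and 63.6 CPM, log2 ratio -1.93). In OB-like cells Sdf2l1 was at 26.8 and 18.8 CPM on 100 UMIs, and its interval [-1.10 to 0.09] reached zero.

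Hsp90b1 encodes GRP94, the ER HSP90, and Calr encodes calreticulin, a calcium-binding lectin chaperone. Hsp90b1 was at 1035 and 522 CPM in COP-like and 1881 and 1057 CPM in MALP-like cells (log2 ratios -0.99 and -0.83). It barely differed in preOB-like (1129 and 1040 CPM, log2 ratio -0.12 [-0.32 to 0.08]) and OB-like cells (543 and 538 CPM, log2 ratio -0.01 [-0.13 to 0.10]). Calr was at 1008 and 493 CPM in COP-like, 1156 and 651 CPM in preOB-like and 1514 and 850 CPM in MALP-like cells (log2 ratios -1.03, -0.83 and -0.83), but at 471 and 407 CPM in OB-like cells (log2 ratio -0.21). GRP94 and calreticulin were therefore the chaperones whose ratios over all OB-like cells lay closest to zero. Within 1 sex the OB-like log2 ratio of Hsp90b1 was 0.07 in male and 0.39 in female cells, and that of Calr -0.14 and 0.40. In preOB-like cells Hsp90b1 was at 0.03 and 0.34 and Calr at -0.60 and -0.30.

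Protein disulfide isomerases form and rearrange disulfide bonds in the ER, and those on the chaperone list, Pdia3, Pdia4 and Pdia6, moved alike. Pdia3 was at 519 and 231 CPM in COP-like, 587 and 369 CPM in preOB-like, 369 and 260 CPM in OB-like and 861 and 438 CPM in MALP-like cells. Its log2 ratios were -1.16, -0.67, -0.51 and -0.98. Pdia6 ran from -0.85 in COP-like to -0.48 in OB-like cells, and Pdia4 from -0.88 in preOB-like to -0.47 in OB-like cells. These 3 isomerases passed 1.5-fold in COP-like, preOB-like and MALP-like cells and missed it in OB-like cells. Isomerases outside the chaperone list did not all follow them. P4hb, a member placed on another list and described below, had a negative ratio in COP-like cells alone. Pdia5, which is no member, was higher past 1.5-fold in preOB-like cells. Within 1 sex the log2 ratio of Pdia6 in preOB-like cells was 0.062 in male and 0.44 in female cells, and in OB-like cells it was -0.63 and 0.55.

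Dnajb9, a BiP cochaperone, Creld2, an ER stress-induced secreted protein, and Herpud1, a component of ER-associated degradation, held fewer UMIs. Dnajb9 was at 90.8 and 39.9 CPM in OB-like cells (log2 ratio -1.18 [-1.55 to -0.83]) and 124 and 59.1 CPM in MALP-like cells (-1.06). In COP-like cells it was at 112 and 80.4 CPM, short of 1.5-fold. Creld2 was at 88.1 and 47.6 CPM in COP-like, 53.5 and 33.8 CPM in OB-like and 92.8 and 46.4 CPM in MALP-like cells (log2 ratio -0.89 in the first and -0.66 in the second class). Herpud1 was the exception in COP-like cells, with 152 and 145 CPM (log2 ratio -0.06 [-0.26 to 0.13]), whereas it was at 117 and 77.9 CPM in OB-like and 188 and 103 CPM in MALP-like cells. In female cells alone the log2 ratio was 0.34 for Creld2 in COP-like cells, and 0.33 for Dnajb9 and 0.47 for Herpud1 in OB-like cells. In preOB-like cells Sdf2l1, Dnajb9 and Creld2 held 37, 28 and 41 UMIs and were below the floor.

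**Figure D2:**
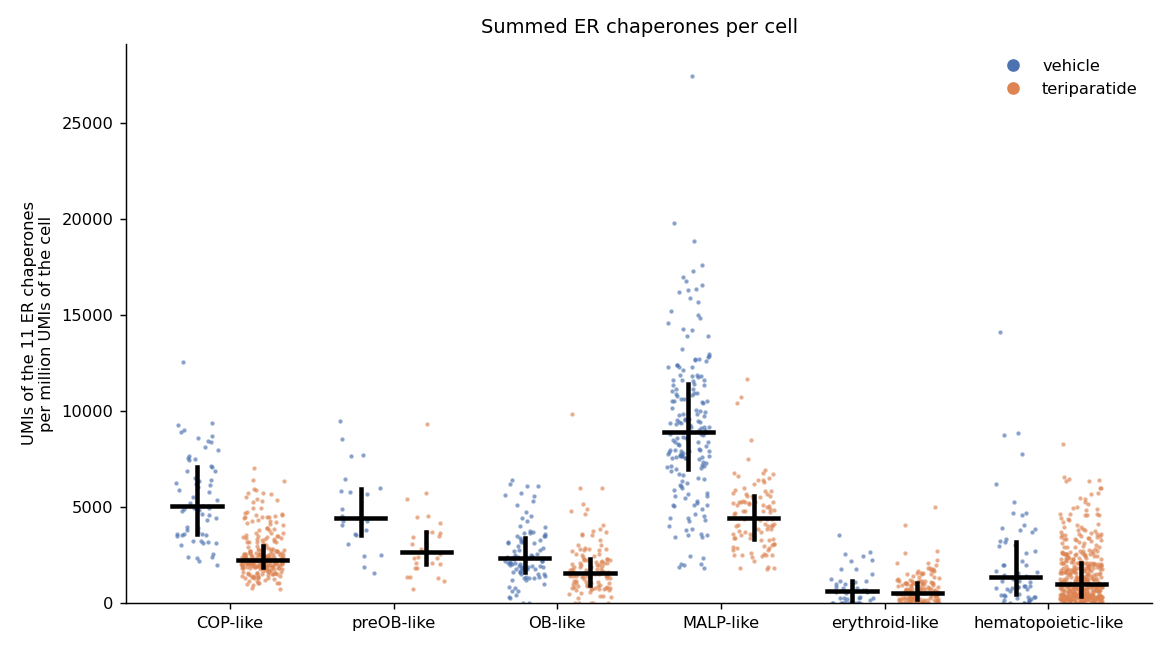
Summed CPM of the 11 ER chaperones within each cell (y axis), with 1 point per cell, for vehicle and teriparatide cells of each class (x axis). Black bars give the median and quartiles. The quartile ranges of the 2 libraries are separate in COP-like and MALP-like cells and overlap in the other 4 classes.

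In COP-like and MALP-like cells the difference was not confined to a few cells. Per cell, the 11 chaperones had a median of 5042 CPM of the cell (quartiles 3593 and 7069) in vehicle COP-like cells and 2250 (1893 and 2961) in teriparatide cells. In MALP-like cells the median was 8884 (6983 and 11402) and 4397 (3346 and 5548). In both classes the lower quartile of vehicle lay above the upper quartile of teriparatide. The same held in male cells of both classes and in female MALP-like cells. In female COP-like cells (9 and 19) the ranges overlapped, with quartiles of 2349 and 5063 in vehicle and 2241 and 4386 in teriparatide. In preOB-like cells the medians were 4399 and 2646 and in OB-like cells 2322 and 1546, with quartile ranges that overlapped.

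Blood cells of the same libraries gave a comparison outside the mesenchyme. The chaperones summed to 907 and 766 CPM in erythroid-gated cells (log2 ratio -0.24 [-0.40 to -0.09]) and to 1987 and 1572 CPM in hematopoietic-gated cells (-0.34 [-0.43 to -0.25]). Among the members, 2 of 12 were lower and 1 higher in erythroid-gated cells, where 9.72% and 11.5% of all genes were, and 6 of 26 were lower and 1 higher in hematopoietic-gated cells, where 22% and 7.12% were. The chaperone median in hematopoietic-gated cells was -0.26 beside -0.25 over all genes. In erythroid-gated cells it was -0.25 beside -0.07, over 7 chaperones of which 2 were lower. Over all cells the chaperone median was thus near that of all genes in hematopoietic-gated cells and below it in erythroid-gated cells. The sums differed by sex, being lower under teriparatide in male cells of both blood groups and nearly level in female cells. In male cells they were 1630 and 1075 CPM in erythroid-gated (12 and 51 cells) and 2305 and 1525 CPM in hematopoietic-gated cells (20 and 212). In female cells they were 691 and 696 CPM (6 and 29 cells) and 2446 and 2481 CPM (19 and 66).

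Sex composition moved with the treatment. Among male cells alone the summed chaperones had log2 ratios of -1.10 in COP-like (53 vehicle and 216 teriparatide cells), -0.45 in preOB-like (6 and 22), -0.38 in OB-like (29 and 83) and -0.96 in MALP-like cells (67 and 73). In female cells the ratios were -0.39 [-0.49 to -0.29] in COP-like (9 and 19) and -1.07 [-1.19 to -0.94] in MALP-like cells (73 and 9). In female OB-like cells (47 and 7) the ratio was of the opposite sign, 0.24 [0.13 to 0.36], and the median over the 11 chaperones was 0.33. Female preOB-like cells (11 and 3) gave -0.11 [-0.29 to 0.07]. The lower chaperone level was hence present in cells of either sex in COP-like and MALP-like cells, whereas in OB-like cells it was seen in male cells and not in the few female ones. In preOB-like cells it was seen in male cells, and the female interval included zero. Over all cells the preOB-like and OB-like ratios, -0.71 and -0.46, lay further below zero than in either sex. Male cells were 35.3% and 88% of sexed preOB-like and 38.2% and 92.2% of sexed OB-like cells, and the part of this shift was not tested.

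**Figure D3:**
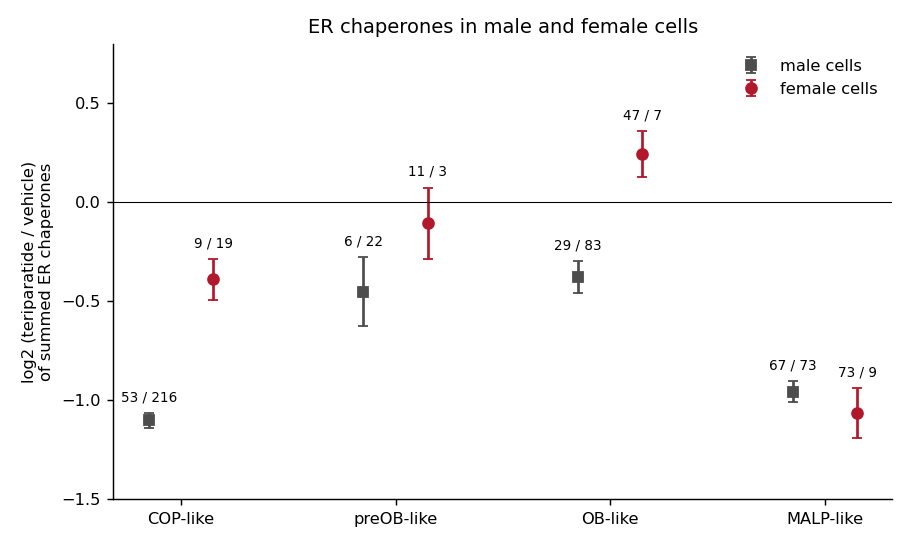
Log2 ratio of teriparatide to vehicle for the summed ER chaperones (y axis) in male and female cells of each class (x axis), with 95% counting intervals. The numbers above the points are vehicle and teriparatide cells. MALP-like cells of both sexes lie near -1, and female OB-like cells lie above zero.

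Immediate early and heat shock genes, which tissue dissociation is known to raise, also differed between the libraries. A list of 14 of them, chosen after values were seen, summed to 25519 and 23119 CPM in COP-like cells (log2 ratio -0.14), but had log2 ratios of -1.37 in preOB-like, -1.29 in OB-like and -0.93 in MALP-like cells. In these 3 classes 10 of 12, 12 of 14 and 11 of 14 of them were lower. In COP-like cells 1 of 14 was lower, but this differed by sex, with 1 of 14 lower in male and 12 of 14 in female cells (median log2 ratios -0.02 and -1.24). In MALP-like cells 8 of 14 were lower in male and 14 of 14 in female cells (medians -0.66 and -2.17). In OB-like cells 10 of 13 were lower in male cells, and 7 of 14 were lower and 1 higher in female cells (medians -1.08 and -0.59). In hematopoietic-gated cells 9 of 14 were lower, with a log2 ratio of the sum of -0.65. Their part in the chaperone result was not tested in any class.

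Known UPR elements were sought in the promoters of the members because so many chaperones moved together. RefSeq windows from 250 bases before to 50 bases after the gene start (GRCm38.p6) were at hand for 30 members, among them 10 chaperones. The ER stress response element ERSE (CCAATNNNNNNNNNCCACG, read on both strands) was found in 5 of the 30, all chaperones, and in 0.137% of the 27025 genes with a window. The related ERSE-II (ATTGGNCCACG) was found in Herpud1 and 0.0444% of genes, and the UPR element TGACGTGG in Sec23a, Sec24d and Kdelr3 and 0.714% of genes. The last 5 letters of ERSE, read on the other strand, are also the last 5 of the UPR element. A match describes these letters only and does not show that a factor binds. ERSE was known beforehand as an element of genes that the UPR raises, and the chaperones are such genes. Its share among them is therefore not a result of these data. The stretches around the matches are shown 5′ to 3′ on the strand of the gene, with the matched letters in capitals, so that the elements can be compared between genes. The match in Sec23a lies after the gene start and its stretch is not shown.
Hspa5 promoter, chr2:34772005-34772063 (+): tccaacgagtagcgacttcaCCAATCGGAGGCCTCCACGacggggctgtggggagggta
Hsp90b1 promoter, chr10:86705513-86705676 (-): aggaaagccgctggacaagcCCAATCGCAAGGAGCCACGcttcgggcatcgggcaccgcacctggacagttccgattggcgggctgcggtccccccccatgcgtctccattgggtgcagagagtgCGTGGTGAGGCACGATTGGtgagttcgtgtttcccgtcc
Calr promoter, chr8:84847055-84847113 (-): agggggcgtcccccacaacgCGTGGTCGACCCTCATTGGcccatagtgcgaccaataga
Pdia6 promoter, chr12:17266471-17266529 (+): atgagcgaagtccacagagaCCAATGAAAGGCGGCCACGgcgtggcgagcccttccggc
Creld2 promoter, chr15:88819500-88819558 (+): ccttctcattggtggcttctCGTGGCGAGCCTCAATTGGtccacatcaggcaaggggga
Herpud1 promoter, chr8:94386357-94386407 (+): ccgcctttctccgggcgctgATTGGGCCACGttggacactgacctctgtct
Kdelr3 promoter, chr15:79516358-79516405 (+): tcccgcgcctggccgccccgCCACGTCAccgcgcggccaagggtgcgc
Sec24d promoter, chr3:123267450-123267495 (+): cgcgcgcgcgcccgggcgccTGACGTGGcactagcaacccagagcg

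Of these genes Hspa5, Hsp90b1, with 2 matches, Calr, Pdia6 and Creld2 were lower past 1.5-fold in both COP-like and MALP-like cells, and Herpud1 in OB-like and MALP-like cells. Chaperones without a match in the window, such as Pdia3, Pdia4, Sdf2l1 and Dnajb9, were lower in MALP-like cells too. In the count tables, ERSE genes numbered 28, and in MALP-like cells 9 of the 10 that passed the floor were lower, against 10.2% of all genes. In COP-like cells 8 of 15 were lower and 4 higher, against 17.3% and 8.07% of all genes. In preOB-like cells 3 of 7 were lower, against 19.6%, and in OB-like cells 2 of 10, against 9.5%. These counts include the 5 members that prompted the search. Among the ERSE genes that are no member, 4 of 5 were lower in MALP-like cells (Canx, Dnajc3, Hnrnpa3 and Syvn1). Of the same set, 3 of 10 were lower in COP-like cells (Canx, Hnrnpa3 and Syvn1) and 4 higher (Pan2, Xlr3a, Xlr3b and Xlr3c). None of them was lower in preOB-like (0 of 3) or OB-like cells (0 of 5). Canx, Dnajc3 and Syvn1 are counted again below among the further genes of the pathway, and 3 of the 4 higher genes are Xlr3 relatives.

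The stress transcription factors were less uniform. Xbp1, the factor spliced by the sensor IRE1, was lower in all 4 classes, at 159 and 91.2 CPM in COP-like, 317 and 165 CPM in preOB-like, 352 and 215 CPM in OB-like and 275 and 159 CPM in MALP-like cells (log2 ratios -0.80, -0.94, -0.71 and -0.79). These counts do not tell spliced from unspliced Xbp1. Atf4, the factor translated when the PERK arm is active, was at 321 and 219 CPM in COP-like, 202 and 118 CPM in preOB-like, 259 and 210 CPM in OB-like and 206 and 163 CPM in MALP-like cells, and passed 1.5-fold in preOB-like cells (log2 ratio -0.77). Ddit3, which encodes the pro-apoptotic factor CHOP, was at 36.9 and 49.6 CPM in COP-like cells (log2 ratio 0.43 [0.05 to 0.83]) and at 62.0 and 38.2 CPM in MALP-like cells (-0.70 [-1.20 to -0.22]). Its ratio thus had opposite signs in these classes. In female MALP-like cells alone it was 0.41, on 64 and 10 UMIs.

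Creb3l1 encodes OASIS, an ER-anchored factor known to drive type I collagen in osteoblasts. It was at 35.2 and 17.5 CPM in COP-like cells (log2 ratio -1.01 [-1.45 to -0.56]) but at 397 and 529 CPM in OB-like cells (0.42 [0.29 to 0.55]), the class where its level was highest in both libraries. Creb3l2, its relative that drives COPII genes in chondrocytes, was highest in COP-like cells, at 220 and 195 CPM, and was 2.25 and 2.51 times the next class. Its log2 ratio in COP-like cells was -0.17. In preOB-like cells Creb3l2 was at 97.8 and 57.4 CPM on 61 UMIs, with an interval that reached zero [-1.54 to 0.01].

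Among prolyl 4-hydroxylase subunits, P4ha2, a catalytic alpha subunit, was lower in all 4 classes, at 241 and 147 CPM in COP-like, 172 and 68.1 CPM in preOB-like, 179 and 118 CPM in OB-like and 60.0 and 32.2 CPM in MALP-like cells. Its log2 ratios were -0.71, -1.34, -0.60 and -0.90. P4ha1, the main alpha subunit of most cells, was at 329 and 211 CPM in COP-like and 110 and 67.4 CPM in MALP-like cells (log2 ratios -0.64 and -0.70) and differed less in OB-like cells (314 and 268 CPM, -0.23). P4hb, the beta subunit that is itself a disulfide isomerase, departed from the isomerases of the chaperone list. It was at 515 and 433 CPM in COP-like, 560 and 561 CPM in preOB-like, 468 and 640 CPM in OB-like and 310 and 386 CPM in MALP-like cells, with log2 ratios of -0.25, 0.00, 0.45 and 0.32. P4ha3 was highest in preOB-like cells, at 40.5 and 64.5 CPM on 48 UMIs. In COP-like cells it was at 16.5 and 24.5 CPM on 30 and 181 UMIs (log2 ratio 0.57 [0.01 to 1.18]). It was at 0 and 1.15 CPM in OB-like cells, where 0 UMIs in vehicle allow up to 1.57 CPM.

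None of the 3 lysyl hydroxylases passed 1.5-fold in any class. Plod2, the enzyme of the collagen telopeptides, was highest in COP-like cells at 1443 and 1167 CPM (log2 ratio -0.31). In OB-like cells it was at 716 and 784 CPM (0.13). Plod1, which hydroxylates the helix, had log2 ratios from -0.42 in COP-like to 0.50 in OB-like cells, and Plod3, which also glycosylates hydroxylysine, from -0.54 to 0.35 in the same classes. All 3 hence had negative ratios in COP-like and positive ratios in OB-like cells.

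Of the ER factors of collagen folding, Serpinh1 encodes HSP47 and carried the most UMIs. It was at 2965 and 1888 CPM in COP-like cells (log2 ratio -0.65 [-0.70 to -0.61]), 3173 and 2450 CPM in preOB-like, 4278 and 3434 CPM in OB-like and 1777 and 1317 CPM in MALP-like cells (log2 ratios -0.37, -0.32 and -0.43). Serpinh1 was thus lower in every class and past 1.5-fold in COP-like cells. Ppib, the cyclophilin B of the prolyl 3-hydroxylation complex, was at 1411 and 1156 CPM in COP-like and 1154 and 1081 CPM in OB-like cells (log2 ratios -0.29 and -0.09). Crtap, the scaffold of that complex, had log2 ratios between -0.19 in MALP-like and 0.27 in OB-like cells. Fkbp10, a prolyl isomerase of the ER, ranged from -0.41 in COP-like to 0.22 in OB-like cells. Tmem38b, an ER cation channel, passed the floor in COP-like and MALP-like cells, where both intervals included zero.

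For export from the ER, 4 of 5 members were lower in COP-like cells, where 17.3% of all genes were, and none was past 1.5-fold in the other classes. Sec23a and Sec24d, inner coat proteins of COPII, were at 104 and 67.4 CPM and at 84.3 and 55.4 CPM in COP-like cells (log2 ratios -0.62 and -0.60). Kdelr2 and Kdelr3, receptors that return chaperones to the ER, were at 723 and 424 CPM and at 270 and 166 CPM in COP-like cells (log2 ratios -0.77 and -0.70). In OB-like cells Kdelr2 was at 1204 and 978 CPM and Kdelr3 at 356 and 260 CPM, with log2 ratios of -0.30 and -0.46. Mia3, which encodes TANGO1, the receptor that loads procollagen into carriers, had log2 ratios from -0.17 to 0.15, and every interval included zero. The sum of the 5 had a log2 ratio of -0.69 [-0.76 to -0.62] in COP-like and between -0.37 and -0.27 in the other classes.

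The extracellular factors differed in direction between classes. In COP-like cells Pcolce, an enhancer of C-propeptide cleavage, was at 253 and 138 CPM (log2 ratio -0.88), Bmp1, the C-proteinase, at 63.9 and 39.9 CPM (-0.68) and Loxl1, a lysyl oxidase-like enzyme, at 43.0 and 20.7 CPM (-1.05). In MALP-like cells the same genes were higher, short of 1.5-fold, with Pcolce at 482 and 681 CPM, Bmp1 at 232 and 332 CPM and Loxl1 at 517 and 745 CPM (log2 ratios 0.50, 0.52 and 0.53). In OB-like cells Bmp1 was at 234 and 326 CPM (log2 ratio 0.48). In female COP-like cells alone the log2 ratio of Loxl1 was 2.09, on 2 and 24 UMIs. Loxl1 was highest in MALP-like cells, 2.29 and 3.22 times the next class.

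Loxl2, a further lysyl oxidase-like enzyme, had the largest spread among classes. It was at 360 and 142 CPM in COP-like cells (log2 ratio -1.35 [-1.49 to -1.20]) and at 244 and 74.5 CPM in OB-like cells (-1.71 [-1.96 to -1.47]). In preOB-like cells it was at 105 and 161 CPM (0.63 [0.02 to 1.26]) and in MALP-like cells at 241 and 318 CPM (0.40 [0.21 to 0.59]). In OB-like cells Loxl2 was detected in 64.5% of vehicle and 34.5% of teriparatide cells, and the 5 cells with the most Loxl2 UMIs held 38.9% and 35.1% of them. Its log2 ratio in COP-like cells was -1.75 in male and -0.08 in female cells, whereas in OB-like cells it was -1.48 and -1.79. In preOB-like cells it was -0.23 in male and 1.76 in female cells.

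Loxl3 was higher in preOB-like (33.7 and 73.5 CPM on 51 UMIs, log2 ratio 1.12 [0.10 to 2.29]) and OB-like cells (36.2 and 66.0 CPM, 0.87 [0.46 to 1.29]). In female OB-like cells alone its log2 ratio was -0.17, on 43 and 6 UMIs. Loxl4 was highest in COP-like cells, at 47.4 and 42.2 CPM. Lox, the founding lysyl oxidase, was at 1016 and 1055 CPM in OB-like and 829 and 1035 CPM in MALP-like cells, and only 2 and 5 UMIs of it were counted in COP-like cells. Sparc, a collagen-binding matrix protein of bone, was at 51698 and 40659 CPM in OB-like cells (log2 ratio -0.35) and at 20448 and 25948 CPM in COP-like cells (0.34). Sparc alone made up most of the sum of this list.

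**Figure D4:**
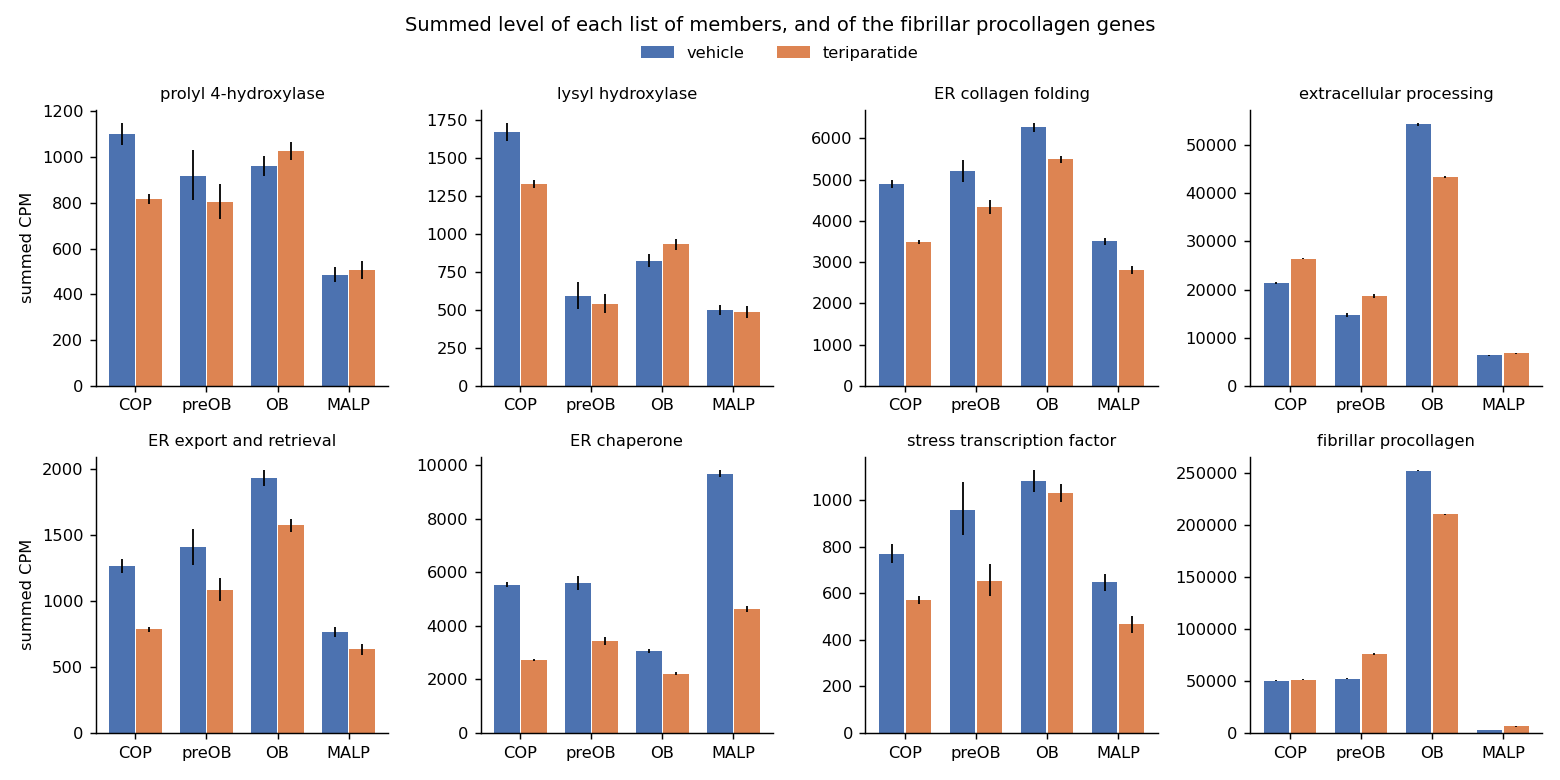
Summed CPM (y axis) of each of the 7 lists of members and of 8 fibrillar procollagen genes in the 4 mesenchymal classes (x axis), for vehicle and teriparatide cells, with 95% counting intervals. The chaperone bars are lower under teriparatide in all 4 classes, and the procollagen bars are lower in OB-like cells alone.

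Procollagen transcripts, the substrate of these enzymes, did not follow the chaperones except in OB-like cells. The 8 fibrillar procollagen genes summed to 50278 and 51342 CPM in COP-like (log2 ratio 0.03), 52339 and 76042 CPM in preOB-like (0.54), 252701 and 210717 CPM in OB-like (-0.26) and 3154 and 6182 CPM in MALP-like cells (0.97). The 5 cells with the most Col1a1 UMIs held 58.8% and 45.9% of them in preOB-like and 24.5% and 39.4% in MALP-like cells. Col1a1 was also counted in blood, at 34.1 and 159 CPM in hematopoietic-gated and 37.1 and 41.1 CPM in erythroid-gated cells. For every 1000 procollagen UMIs there were 110 chaperone UMIs in vehicle and 53.3 in teriparatide COP-like cells, and 107 and 45.1 in preOB-like cells. In OB-like cells the figures were 12.1 and 10.5. The factors of collagen folding stood at 97.2 and 67.8 per 1000 procollagen UMIs in COP-like and at 24.8 and 26.1 in OB-like cells.

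From cell to cell within a class the lists related differently to procollagen. Given as a description, with cells of 1 library sharing that library and with depth varying among them, Spearman's rho between the collagen folding factors and procollagen, both as shares of the cell's UMIs, was 0.75 over 65 vehicle and 0.66 over 246 teriparatide COP-like cells. For the chaperones it was -0.01 and 0.37 over the same cells. In OB-like cells rho was 0.24 and 0.24 for the folding factors and -0.04 and -0.04 for the chaperones, over 93 and 119 cells. The depth of the cell itself had a rho of 0.60 and 0.55 with the folding factors and 0.45 and 0.49 with the chaperones in OB-like cells, and of 0.03 and 0.09 with procollagen. In COP-like cells depth had a rho of 0.57 and 0.41 with procollagen and of 0.53 and 0.45 with the folding factors.

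By class, 8 members were at least 1.5-fold above each other class in both libraries. Those in COP-like cells were Loxl4 and Creb3l2 (7.15% of all genes), in preOB-like cells P4ha3 (2.23%), in OB-like cells Sparc (1.71%), and in MALP-like cells Loxl1, Hspa5, Pdia6 and Sdf2l1 (11.8%). Neighbouring classes were often close, and for Lox the OB-like and MALP-like levels in teriparatide cells differed by a log2 ratio of 0.03 [-0.07 to 0.12]. The count in OB-like cells turned on the scaling, because procollagen took 25.3% of UMIs in vehicle and 21.1% in teriparatide OB-like cells. With procollagen and marker genes left out of the totals it was 10 members (3.65% of all genes), and with median-ratio scaling 13, among them Serpinh1, Crtap, Fkbp10, Sec24d, Kdelr2, Kdelr3, Xbp1 and Creb3l1. Under the latter scaling 5.33% of all genes were highest there.

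The OB gate held cells with Mepe, a marker of mineralising osteoblasts and osteocytes, in 4 vehicle and 15 teriparatide cells. In the teriparatide library these cells had 1404 CPM of Serpinh1 beside 3595 CPM in the other OB-like cells, and 15628 beside 42639 CPM of Sparc. Dnajb9 went the other way, at 168 and 29.8 CPM on 32 and 72 UMIs. Hspa5 was at 408 and 360 CPM. The median depth was 8370 UMIs in the Mepe-positive cells and 20607.5 in the other OB-like cells of that library. The part of depth in these differences was not tested. Without the Mepe-positive cells the median chaperone log2 ratio in OB-like cells was -0.53.

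Across the 8 class and library values, which share libraries and classes, the gene most like Serpinh1 in rank among 748 genes was Surf4, a cargo receptor of ER export (Spearman's rho 1.00), followed by the coatomer subunits Cope and Copz2 (0.98 each). Kdelr3 ranked with Ostc and Serp1 (1.00 each), proteins of the ER translocation site, and Fkbp10 with Lman1 and Sec61a1 (0.98 each). Over 20 members ranked in this way, genes outside the pathway stood as close, such as Sox4 with Pdia3, Cdc42 with Pdia4 and Gnb2 with Hsp90b1 (1.00 each). With 8 values and 748 genes such ranks are a description only.

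Of 72 further genes of the pathway, 20 of 62 that passed the floor were lower and 2 higher in COP-like cells. The counts were 4 of 35 and 5 in preOB-like, 9 of 59 and 2 in OB-like and 10 of 56 and 0 in MALP-like cells. Over all genes 17.3%, 19.6%, 9.5% and 10.2% were lower in these classes, in the same order. The shares higher were 8.07%, 9.51%, 8.97% and 7.79%. In preOB-like cells the share lower was thus below that of all genes. Dnajb11, another BiP cochaperone, was lower in all 4 classes, at 149 and 72.8 CPM in COP-like and 206 and 122 CPM in MALP-like cells (log2 ratios -1.03 and -0.76). Hyou1, the nucleotide exchange factor of BiP, was at 45.2 and 15.6 CPM in COP-like and 106 and 48.7 CPM in MALP-like cells (-1.53 and -1.12). Of the 5 UPR sensors and proteases, 1 of 4 was lower in COP-like cells, 0 of 3 in OB-like and 0 of 4 in MALP-like cells. Of 15 targets of the Atf4 arm, 6 of 12 were lower in COP-like cells (Asns, Psat1, Phgdh, Shmt2, Slc3a2 and Vldlr) and 1 was higher (Ddit4). In MALP-like cells 3 of 7 were lower (Atf3, Ppp1r15a and Cebpb). In preOB-like cells 0 of 4 were lower and 2 higher, and in OB-like cells 4 of 11 were lower and 2 higher. Summed, these targets had log2 ratios of -0.02 [-0.07 to 0.03] in COP-like and 0.35 [0.16 to 0.55] in preOB-like cells. In OB-like and MALP-like cells the sums gave -0.10 [-0.15 to -0.04] and -0.69 [-0.80 to -0.59]. Of 24 further genes of ER folding and degradation, 8 of 22 were lower in COP-like, 2 of 14 in preOB-like, 4 of 22 in OB-like and 6 of 22 in MALP-like cells, where 17.3%, 19.6%, 9.5% and 10.2% of all genes were lower. The sensors and proteases held few UMIs, and all 4 that passed in MALP-like cells had ratios above zero. The sum of that list in MALP-like cells had a log2 ratio of 0.17 [-0.07 to 0.40].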

How the data were processed

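Single-cell RNA was captured in 2 10x libraries, 1 per condition. The authors aligned reads to mm10 and deposited filtered matrices of raw UMI counts per gene and cell (Cell Ranger 2.1.0 in the submitters' processing notes, 3.1.0 in the matrix headers). Cells with 200 to 6000 genes and at most 10% mitochondrial UMIs were kept, as in the study. No doublet caller was run, and 3 cells that passed several mesenchymal gates or both blood gates were left out. A gate was a minimum for the mean over markers of log2(1 + UMIs per 10000), namely 2 for COP, 3.4 for OB, 2 for MALP and 1.25 for preOB. These were set at valleys of the scores after the data were seen. Of the gated mesenchymal cells, 3 to 21 per class and library lay within 10% of some gate. The share was largest in preOB-like cells, with 8 of 22 vehicle and 13 of 31 teriparatide cells. In COP-like cells it was 3 of 65 and 5 of 246. Of the 118 cells in the graph cluster named preOB, 39.0% were in that gate, so this class was the least sharply bounded. A sex call came from Xist against Y-linked genes.

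UMIs were summed per class and library and given as CPM with exact Poisson intervals. Ratios have conditional binomial (Clopper-Pearson) intervals. With 1 library per condition no test was made. Totals were 7991948 and 21895554 UMIs in kept cells, and the counting error of a value follows from its own UMIs. The intervals take UMIs as independent and leave out variation between cells and between mice. The call rule was tested on simulated counts with counting error alone. Of 200 genes per class changed 3-fold, each with at least 200 UMIs, 100% were called. Smaller changes were not simulated. Of the unchanged genes with at least 50 UMIs, the rule called 5.93% in COP-like and 14.3% in preOB-like cells. In OB-like and MALP-like cells it called 5.12% and 4.50%. Named are members past 1.5-fold in a class, those highest in 1 class, the member with the most UMIs in each list and, as further description, the remaining members. The members and lists were chosen with earlier results of these data known. Promoters were RefSeq windows of GRCm38.p6. Alternatives covered the scaling, floor, fold, gates, graph clusters (leidenalg 0.10.2), cell limits, thinning, sex and left-out cells. Python 3.11.15, numpy 2.4.6 and scipy 1.17.1 were used.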

Additional observations from a re-analysis of the deposited data

Results flagged for a closer look

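Loxl2 was past 1.5-fold in opposite directions in different classes, with counting intervals away from zero. Its log2 ratio of teriparatide to vehicle was -1.35 in COP-like and -1.71 in OB-like cells and 0.63 in preOB-like cells. In preOB-like cells it rested on 31 vehicle and 90 teriparatide UMIs. Within male cells, which were 22 of the teriparatide preOB-like cells, the preOB-like ratio was -0.23, and within female cells the COP-like ratio was -0.08. The difference between classes was not tested.

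In preOB-like cells 4 members had opposite log2 ratios in male and female cells, each past 1.5-fold. Lox had a log2 ratio of 1.246 in male and -1.24 in female cells. Sparc gave 0.93 and -0.93, Kdelr2 0.99 and -0.78, and Creb3l1 1.85 and -1.61. These rest on 6 male and 11 female vehicle cells and on 22 male and 3 female teriparatide cells, and the difference between sexes was not tested.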

How the results depend on the processing

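Scaling to the median gene gave 12 lower and 2 higher members in COP-like cells with a median log2 ratio of -0.41, a median of -0.032 in preOB-like cells, 2 higher members in OB-like and 1 in MALP-like cells, and 13 members highest in OB-like and 2 in MALP-like cells. Leaving procollagen and marker genes out of the totals gave 10 members highest in OB-like cells. A fold of 2 left 8 members lower in COP-like, 3 in preOB-like, 2 in OB-like and 4 in MALP-like cells, 1 higher in preOB-like and 0 in OB-like cells, and 0 highest in OB-like and 2 in MALP-like cells. By construction a larger fold can only lower these counts. A floor of 20 UMIs gave 2 higher of 40 members in OB-like and 1 of 40 in MALP-like cells. A floor of 200 UMIs gave 0 higher and 5 lower of 17 in preOB-like cells. Thinning each cell to 3000 UMIs gave 0 higher and 3 lower of 15 members in preOB-like and 3 lower of 27 in OB-like cells. After it 1 was highest in COP-like, 0 in preOB-like and 2 in OB-like cells (6.36%, 2.14% and 1.48% of all genes).

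Male cells alone gave 1 higher of 40 members that passed in COP-like cells. In male preOB-like cells 7 of 25 were higher and 4 lower, with a median log2 ratio of 0.062 beside -0.03 over all genes. In male OB-like cells 4 of 37 were higher and 5 lower, and in MALP-like cells 1 of 39 was higher. In male cells 3 members were highest in OB-like cells (1.78% of all genes). Female cells alone gave 10 lower of 33 members in COP-like cells, with a median of -0.31 beside -0.06 over all genes. In female preOB-like cells 1 of 21 was higher, with a median of -0.52 beside -0.21. In female OB-like cells 4 of 35 were higher and 5 lower, and in MALP-like cells 3 of 36 were higher. In female cells 4 were highest in COP-like, 0 in preOB-like, 0 in OB-like and 1 in MALP-like cells. The shares of all genes were 4.91%, 2.09%, 1.78% and 10.5%. Graph clusters gave 4 higher of 39 members in preOB-like, 2 of 38 in OB-like and 1 of 39 in MALP-like cells. With them 4 members were highest in OB-like cells (2.36% of all genes). Those 4 were Crtap, Sec24d, Kdelr2 and Creb3l1 and did not include Sparc, and Loxl1 was no longer highest in MALP-like cells. Sparc was also not highest in OB-like cells after thinning, with means of per-cell CPM, at a fold of 2 or in female cells. The 1 member highest in female MALP-like cells was Ddit3. A mitochondrial limit of 20% gave 1 higher and 6 lower of 36 members in preOB-like cells and 2 higher of 38 in OB-like cells. Under it 2 were highest in OB-like cells (1.85% of all genes). Without an upper limit on genes 2 members were highest in OB-like cells (1.85% of all genes). Means of per-cell CPM gave 1 higher of 40 in COP-like cells. The stricter gate gave 1 higher of 40 in COP-like and 0 of 27 in preOB-like cells. Without the 5 deepest cells of each class and library 1 of 40 members was higher in COP-like, 1 of 26 in preOB-like and 1 of 39 in MALP-like cells. In that setting 5 were highest in OB-like cells (1.88% of all genes). Apart from the scaling in COP-like cells, the shares of all genes higher or lower under these alternatives are not given here. The counts of higher and lower members are therefore a description only. The cause of these shifts was not tested.

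For the 58 log2 ratios of members past 1.5-fold or otherwise chosen by the naming rule, 11 changes of sign were found over the alternatives. In female cells Loxl1 in COP-like cells became 2.09, Creld2 in COP-like 0.34, Loxl3 in OB-like -0.17, Hspa5 in OB-like 0.28, Dnajb9 in OB-like 0.33, Herpud1 in OB-like 0.47, Pdia6 in preOB-like 0.44 and Ddit3 in MALP-like cells 0.41. In male preOB-like cells Loxl2 became -0.23 and Pdia6 0.062. In graph clusters Creb3l2 in preOB-like cells became 0.18. Over all member ratios with at least 50 UMIs within the sex, 19 of 141 had the opposite sign in male cells and 37 of 125 in female cells, among them 17 of 35 in female OB-like cells and 13 of 25 in male preOB-like cells. No paired analysis was possible because each condition had 1 library. Leaving out a replicate was impossible for the same reason.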

Other observations

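Cells gated by the prehypertrophic markers Col10a1, Ihh and Panx3 were kept apart from the 4 classes. They numbered 7 under vehicle and 35 under teriparatide. The 11 ER chaperones summed to 1757 CPM [1498 to 2047] in vehicle and 2491 CPM [2398 to 2588] in teriparatide cells, a log2 ratio of 0.50 [0.28 to 0.74], which is opposite in sign to that of the 4 classes. The collagen folding factors summed to 1917 and 2719 CPM and the targets of the Atf4 arm to 482 and 1282 CPM. The medians of UMIs per cell were 9238 and 35425, and the intervals cover counting error alone.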
